A study of Homo sapiens with 12 samples.

Results

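The respiratory chain genes examined here are the nuclear protein-coding genes for subunits of mitochondrial complexes I to V, together with the assembly factors whose symbols match the same patterns. They were chosen by symbol from the RefSeq gene table of GRCh38.p14. Symbols starting NDUFA, NDUFB, NDUFC, NDUFS, NDUFV, UQCR or ATP5, or COX followed by a digit, were taken, and SDHA, SDHB, SDHC, SDHD and CYC1 were added. This gave 106 of 20037 protein-coding genes on the numbered chromosomes, X and Y. They comprised 38 complex I genes, 8 complex I assembly factors, 4 complex II genes, 10 complex III genes, 17 complex IV genes, 9 complex IV assembly factors and 20 complex V genes. The read-through genes ATP5MF-PTCD1 and NDUFC2-KCTD14 overlap ATP5MF and NDUFC2, so they are not independent entries.

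The respiratory chain passes electrons from NADH (complex I) and succinate (complex II) through complex III and cytochrome c to oxygen at complex IV, and the proton gradient built on the way drives ATP synthesis at complex V. Most subunits are encoded in the nucleus and are made in nearly all cells. Many of their promoters carry sites for general factors such as NRF1, the ETS factor GABP and YY1. Glucocorticoids and cytokine signalling are both known to alter energy metabolism in lymphoid cells.

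The study mapped binding of the glucocorticoid receptor NR3C1 and of STAT5B by chromatin immunoprecipitation and sequencing in the SUPT-1 line, which was established from human T-lymphoblastic malignancy and grows in culture. Cells carried a doxycycline-inducible, puromycin-selected construct for wild-type STAT5B (WT line) or for the N642H mutant (N642H line), a recurrent activating mutation of the SH2 domain. Doxycycline was given in all groups, also those named untreated. Prednisolone, a synthetic glucocorticoid, was given at 250 µg per ml for 16 hours. Of 12 samples, 8 were pull-downs, 1 for each antibody, line and treatment, and 4 were input DNA, which are not analysed here on their own. With 1 library per group no difference between conditions could be tested, and every comparison describes these libraries. How much of either STAT5B form each line made was not given in the labels, and expression was not measured in these files, so cell identity was not checked against marker genes.

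On the numbered chromosomes, X and Y, the 8 peak lists held 2 and 2 regions (NR3C1 untreated, WT and N642H), 995 and 2888 (NR3C1 with prednisolone), 2267 and 4542 (STAT5B untreated) and 766 and 446 (STAT5B with prednisolone). As deposited they held 3 and 2, 1006 and 2922, 2278 and 4557, and 773 and 478 regions in the same order. Total read counts were not given in the files, so depth is unknown. A gene was called linked to a list when a summit, the base of highest enrichment in a region, lay in its span or within 2 kb. The fold (ChIP over local background) and −log10 q of a region are the authors' own values. They describe a region within its list and do not measure a change between lists.

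The members found in all 4 lists of an antibody numbered 5, and their promoters are shown to give the DNA on which the summits fell. NDUFS7, NDUFB3 and NDUFS3 encode complex I subunits, NDUFAF1 encodes a complex I assembly factor, and all were in the 4 STAT5B lists. COX17, a copper chaperone gene of complex IV assembly, was in the 4 NR3C1 lists. Each sequence is from RefSeq (GRCh38.p14), 300 bases from 250 before the annotated start to 50 after it, read 5′ to 3′ on the gene's strand. Capitals run from the lowest to the highest summit position over the lists that contained the gene. The NDUFS7 window is chr19:1383657-1383956 on the plus strand, and that of NDUFB3 is chr2:201071751-201072050 on the plus strand. NDUFS3 is shown at chr11:47578824-47579123 on the plus strand, NDUFAF1 at chr15:41402447-41402746 on the minus strand, and COX17 at chr3:119676954-119677253 on the minus strand, upstream of the second of its annotated starts.
NDUFS7: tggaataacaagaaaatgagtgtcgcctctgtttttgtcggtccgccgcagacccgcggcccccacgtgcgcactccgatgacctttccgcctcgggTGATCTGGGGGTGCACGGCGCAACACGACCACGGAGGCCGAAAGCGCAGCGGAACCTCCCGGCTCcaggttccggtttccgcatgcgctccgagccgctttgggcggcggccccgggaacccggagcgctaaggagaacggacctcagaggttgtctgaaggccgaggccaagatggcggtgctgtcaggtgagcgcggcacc
NDUFB3: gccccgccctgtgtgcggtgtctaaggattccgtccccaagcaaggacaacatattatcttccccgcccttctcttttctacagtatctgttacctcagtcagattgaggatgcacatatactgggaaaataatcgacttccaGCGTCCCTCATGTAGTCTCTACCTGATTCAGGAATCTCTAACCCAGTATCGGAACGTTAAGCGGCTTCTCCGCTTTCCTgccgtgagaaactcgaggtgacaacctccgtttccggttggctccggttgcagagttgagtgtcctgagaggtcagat
NDUFS3: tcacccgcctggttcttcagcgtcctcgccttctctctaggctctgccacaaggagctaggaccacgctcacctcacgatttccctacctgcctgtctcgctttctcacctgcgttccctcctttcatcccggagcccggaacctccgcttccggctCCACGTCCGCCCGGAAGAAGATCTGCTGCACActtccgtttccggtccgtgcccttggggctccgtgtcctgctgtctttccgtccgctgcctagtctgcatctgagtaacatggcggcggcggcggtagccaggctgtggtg
NDUFAF1: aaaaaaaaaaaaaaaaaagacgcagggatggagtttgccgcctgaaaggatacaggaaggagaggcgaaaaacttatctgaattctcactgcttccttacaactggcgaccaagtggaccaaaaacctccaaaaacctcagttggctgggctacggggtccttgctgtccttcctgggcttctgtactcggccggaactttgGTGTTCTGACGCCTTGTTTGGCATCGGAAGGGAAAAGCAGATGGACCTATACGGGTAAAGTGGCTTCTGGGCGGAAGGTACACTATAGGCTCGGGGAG
COX17: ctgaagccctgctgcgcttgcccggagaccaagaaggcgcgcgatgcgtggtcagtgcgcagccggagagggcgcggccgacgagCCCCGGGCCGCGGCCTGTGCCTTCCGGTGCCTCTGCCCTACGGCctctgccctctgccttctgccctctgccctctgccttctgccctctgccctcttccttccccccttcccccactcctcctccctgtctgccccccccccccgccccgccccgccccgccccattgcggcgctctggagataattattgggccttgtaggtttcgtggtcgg

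In NDUFS7 the summits lay 153 bp (untreated WT), 89 bp (untreated N642H), 89 bp (WT with prednisolone) and 91 bp (N642H with prednisolone) upstream of the start. The summits in 3 of these 4 lists thus fell within 2 bp of each other. In NDUFS3 the 4 STAT5B summits lay 62, 74, 93 and 68 bp upstream in the same order of lists, and the NR3C1 summit of the N642H line with prednisolone lay 72 bp upstream. The summits of both antibodies thus fell on the same short stretch. In NDUFB3 the distances were 101, 107, 55 and 29 bp upstream. In NDUFAF1 they were 48 bp upstream in both WT lists and 68 and 30 bp downstream in the untreated and treated N642H lists, so the capitals end where the window ends. In COX17 the NR3C1 summits lay 122, 124, 143 and 165 bp upstream of the second start, at position 119677003, and between 238 and 281 bp downstream of the other start, at 119677406.

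STAT5B regions lay at 33 of the 106 genes in at least 1 of the 4 STAT5B lists (31.1%), against 22.2% of all protein-coding genes. NR3C1 regions lay at 6 of 106 (5.66%), against 7.32% of all genes. Of the 35 genes linked in any list, 29 had STAT5B regions only, COX17 and NDUFS1 had NR3C1 regions only, and NDUFS3, COX20, ATP5F1A and NDUFA10 had both. The other 71 genes were linked in none. Members linked in any list were thus 33.0%, against 25.1% of all genes. Members were shorter than other genes, with a median span of 10672 bp against 24115 bp for all. The median was 11678 bp for members with a STAT5B region and 8577 bp for those without. Whether gene length bears on the shares was not tested.

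In untreated WT cells STAT5B was linked to 15 members (14.2%, exact Clopper-Pearson 95% interval 8.14 to 22.3), against 9.94% of all genes. Untreated N642H cells had 30 members linked (28.3%, 20.0 to 37.9), against 19.2% of all genes. With prednisolone the WT line had 10 (9.43%, 4.62 to 16.7), against 3.64%, and the N642H line 5 (4.72%, 1.55 to 10.7), against 1.74%. By this rule the member share was above that of all genes in each of the 4 STAT5B lists, but not under every other rule. With the summit required inside the gene span it was 9.43% against 10% in untreated N642H, and 5.66% against 5.11%, 2.83% against 1.71% and 0.943% against 0.853% in untreated WT, treated WT and treated N642H. The interval of the share by the 2 kb rule, which covers counting error over genes only, included the share of all genes in the untreated WT list and in the N642H list with prednisolone. For NR3C1, COX17 was the member linked in either untreated line (0.943% of members in each, against 0.00998% of genes, which is 2 genes). With prednisolone NR3C1 had 2 members linked in WT (1.89%, 0.229 to 6.65), against 2.61% of all genes, and 6 in N642H (5.66%, 2.11 to 11.9), against 7.1%. These NR3C1 shares with prednisolone were near the background.

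**Figure D1:**
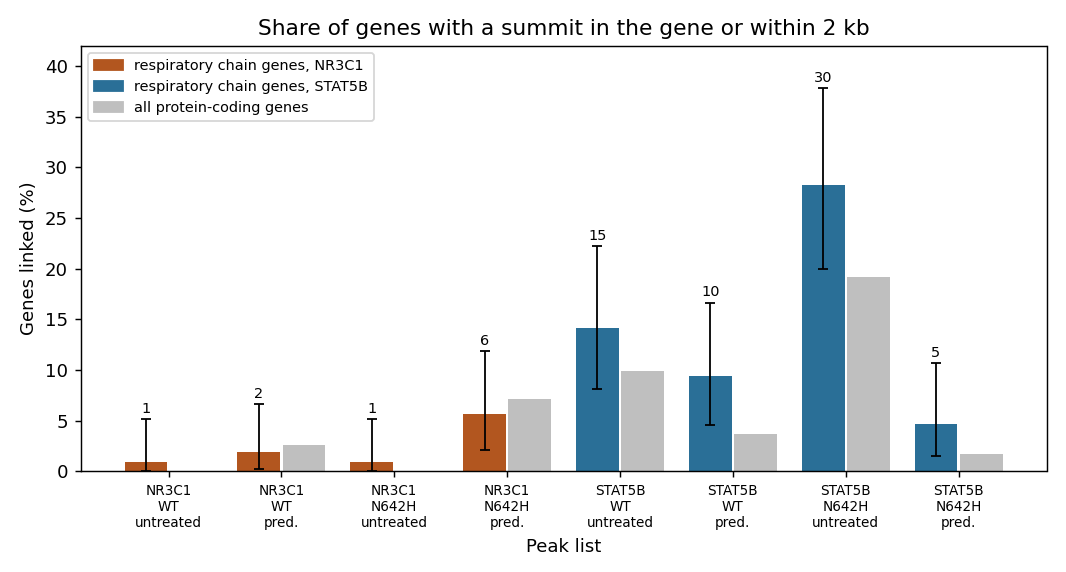
Percentage of respiratory chain genes (coloured bars, number linked above) and of all protein-coding genes (grey bars) with a summit in the gene or within 2 kb, for each peak list; error bars are exact 95% intervals for counting error, and each list is 1 library. The 30 genes of the untreated N642H STAT5B list are the most of any list, and the NR3C1 bars with prednisolone lie below the grey bars.

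For each antibody the counts followed the lengths of the lists. When each of the 6 long lists was held to its 446 strongest regions by −log10 q, STAT5B was linked to 2 members in untreated WT (2.11% of all genes linked), 3 in untreated N642H (1.82% of genes), 8 in WT with prednisolone (2.13% of genes) and 5 in N642H with prednisolone (1.74% of genes). In untreated WT the member share, 1.89%, was then below that of all genes. The order of untreated and prednisolone lists was turned in both lines. The difference between the untreated lines, 15 against 30 members in the full lists, was 2 against 3. NR3C1 with prednisolone then had 2 members in WT (1.2% of genes) and 1 in N642H (1.23% of genes).

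Most regions at these genes sat at the promoter. Of 64 pairs of a summit and a member with an annotated start, 51 were within 200 bp of the start, 50 were upstream of it and 14 at it or downstream. In the untreated WT STAT5B list 15 of 15 such summits lay within 1 kb of the start, against 73.5% of all gene links in that list. The corresponding numbers were 8 of 8 against 77.0% in WT with prednisolone, 24 of 26 against 71.4% in untreated N642H and 5 of 5 against 78.8% in N642H with prednisolone. For NR3C1 with prednisolone, 2 of 2 summits in WT and 5 of 6 in N642H lay within 1 kb, whereas over all genes 15.4% and 23% did. These links were taken over whole gene spans, and members were shorter (median 10672 bp against 24115 bp for all genes). Whether gene length bears on these contrasts was not tested. The summits farther than 1 kb were an NR3C1 region inside NDUFA10, 55151 bp from its start, a STAT5B region 20851 bp from the start of NDUFB6, beyond the far end of the gene, and a STAT5B region 1390 bp upstream of COX20.

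**Figure D2:**
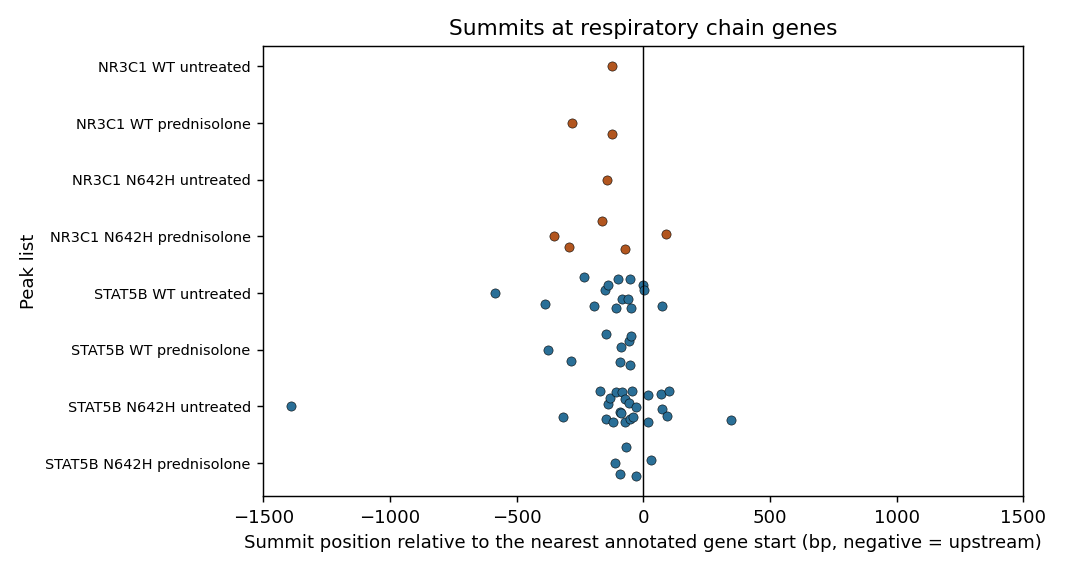
Position of each summit relative to the nearest annotated start of its respiratory chain gene (bp, negative is upstream) for the 8 lists; each point is 1 summit, and 62 are shown, with 2 beyond the axis limit of 1500 bp. STAT5B points (blue) gather within 200 bp of the start, while the NR3C1 points (brown) include COX17 in all 4 lists and others up to 352 bp upstream, and the vertical spread within a list only keeps points apart.

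A further rule counted only summits within 1 kb of an annotated start, or of either end of a gene without one, whatever the gene's length. The number of positions searched still differed between genes, with 108 starts for 86 members and 22175 for 15842 of all genes. By that rule STAT5B was at 14 members in untreated WT (7.58% of all genes), 27 in untreated N642H (14.9%), 10 in WT with prednisolone (2.87%) and 5 in N642H with prednisolone (1.36%). NR3C1 with prednisolone was at 2 members in WT (0.469% of all genes) and 5 in N642H (2.09%). As shares of the 106 members these were 13.2%, 25.5%, 9.43% and 4.72% for STAT5B and 1.89% and 4.72% for NR3C1. At gene starts the NR3C1 share of members was thus above that of all genes in both lines, the opposite order from the count over whole genes. It rests on 2 and 5 genes, of which COX17 carried a region without prednisolone as well.

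Complex I and its assembly factors, which are 38 and 8 of the 106 members, supplied 4 of the 5 members linked to STAT5B in N642H with prednisolone. In WT with prednisolone they supplied 6 of the 10. Of 38 complex I genes, 13 were linked to STAT5B: 5 in untreated WT, 11 in untreated N642H, 5 in WT with prednisolone and 3 in N642H with prednisolone. Over all genes 22.2% were linked to STAT5B, and 9.94%, 19.2%, 3.64% and 1.74% in these lists in turn. Whether complex I differed from the other groups was not tested. NDUFS7, which encodes an iron-sulfur subunit near the end of the electron path, had the strongest untreated STAT5B regions of all members. Its fold was 9.55 in untreated WT (−log10 q 12.3) and 11.0 in untreated N642H (−log10 q 22.4). With prednisolone the values were 8.08 (−log10 q 8.14) in WT and 7.30 (−log10 q 6.27) in N642H. Within their own lists these regions ranked in the top 4.72% and 2.80% without prednisolone, and in the top 25.5% and 48.2% with it.

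NDUFS3 encodes another core subunit of the peripheral arm and all its regions were also linked to KBTBD4. Its STAT5B fold was 8.59 in untreated WT (−log10 q 10.1) and 8.99 in WT with prednisolone (−log10 q 9.26). In the N642H line it was 3.58 untreated (−log10 q 3.44) and 5.53 with prednisolone (−log10 q 3.52). The NR3C1 region of the N642H line with prednisolone had a fold of 7.12 (−log10 q 9.88). NDUFS3 was thus high within both WT lists and among the weakest regions of both N642H STAT5B lists, where it ranked at 93.4% and 86.3% of the list. It was the only member linked to both NR3C1 and STAT5B in prednisolone-treated N642H cells, and no member was linked to both in treated WT cells.

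NDUFB3, an accessory subunit gene, had folds of 7.70 and 5.86 in untreated WT and N642H and of 7.71 and 7.30 with prednisolone. Its −log10 q values lay in a narrow range, from 6.27 to 8.22. The same regions were linked to HYCC2. NDUFAF1, which helps to build the membrane arm of complex I, had folds of 6.21 and 5.33 in untreated WT and N642H, and of 11.2 and 8.34 with prednisolone. With −log10 q of 13.3, its region in treated WT cells ranked in the top 5.09% of that list and was the strongest member there.

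NDUFB1 was linked in untreated WT (fold 5.86), in WT with prednisolone (fold 7.78) and in untreated N642H (fold 9.05, −log10 q 13.4), through regions that were also linked to CPSF2. NDUFA12 had a STAT5B region only in WT with prednisolone (fold 10.1, −log10 q 10.6), 51 bp upstream of its start. NDUFB7 (fold 7.19) and the assembly factor NDUFAF5 (fold 6.92, also linked to ESF1) were linked only in untreated WT. The remaining complex I genes were linked to STAT5B only in untreated N642H. They were NDUFA10 (fold 7.46), NDUFA11 (6.60), NDUFA6 (4.26), NDUFA9 (4.00), NDUFB6 (6.49), NDUFB9 (4.81), NDUFS4 (6.53) and the assembly factor NDUFAF3 (6.07). Their −log10 q ran from 3.11 for NDUFA9, the weakest region at any member in that list, to 8.50 for NDUFA10. NDUFS1, which encodes the largest subunit of complex I, had no STAT5B region and an NR3C1 region in N642H with prednisolone (fold 6.30), 292 bp upstream of its start and also linked to EEF1B2.

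**Figure D3:**
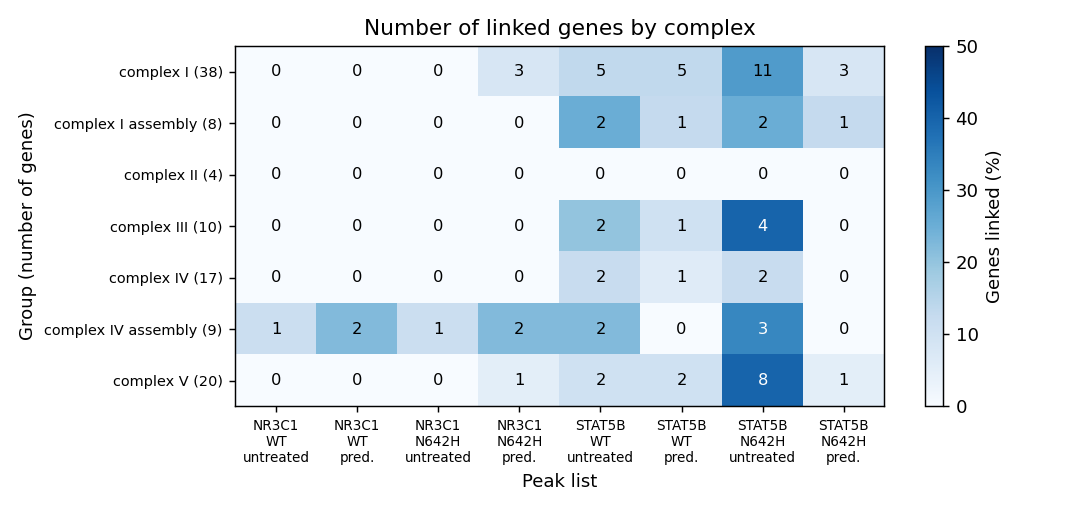
Number of genes linked to each peak list, by complex (rows, with the number of genes in each group) and list (columns); the colour is the percentage of the group. Complex II has 0 of its 4 genes in every list, and 25.1% of all genes were linked in any list. For STAT5B, complex V goes from 2 genes in untreated WT to 8 in untreated N642H. The share of all genes goes from 9.94% to 19.2% between these 2 lists.

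None of the 4 complex II genes was linked in any list, against 25.1% of all genes linked in at least 1. With only 4 genes, this count does not set complex II apart. SDHA, the flavoprotein gene, came nearest, with a STAT5B region 2631 bp outside the gene in untreated N642H (fold 5.86). The nearest STAT5B summits of SDHD lay between 12603 and 12815 bp away in both untreated lists and in WT with prednisolone. Those of SDHC were 36427 and 36464 bp away without prednisolone, and the nearest summit of SDHB in any list lay 89162 bp away (NR3C1, N642H with prednisolone). In complex III, CYC1, the cytochrome c1 gene, was not linked either, and its nearest summit lay 6254 bp away (STAT5B, untreated WT).

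Linked complex III genes were UQCRH, UQCRC2, UQCRC1 and UQCRFS1. UQCRH, the hinge subunit gene, had regions in untreated N642H (fold 9.53, −log10 q 16.6), untreated WT (fold 6.70) and WT with prednisolone (fold 5.35, −log10 q 3.07). Within their own lists these ranked at 6.56%, 29.8% and 93.6% in turn. The 2 WT regions did not overlap, and LRRC41 was linked through all 3. UQCRC2, a core protein gene, was linked in untreated WT (fold 6.50) and untreated N642H (fold 6.13). UQCRC1, the other core protein gene (fold 6.07), and UQCRFS1, the Rieske iron-sulfur protein gene (fold 5.06), were linked only in untreated N642H.

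Complex IV subunit genes were linked least often after complex II, at 2 of 17, both to STAT5B, against 22.2% of all genes. With so few genes this order was not tested. COX7A2, an accessory subunit gene, had overlapping STAT5B regions in untreated WT (fold 7.51), in WT with prednisolone (fold 7.71) and in untreated N642H (fold 7.87), and COX7C had regions in untreated WT (fold 5.68) and untreated N642H (folds 5.83 and 5.79, on either side of the start). No complex IV subunit gene was linked to STAT5B in N642H with prednisolone, against 1.74% of all genes.

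Among complex IV assembly factors, NR3C1 was linked to COX17 and COX20, and STAT5B to COX16, COX19 and COX20. COX17 delivers copper towards the catalytic core of complex IV. Its NR3C1 region had a fold of 16.7 (−log10 q 24.5) in untreated WT and 16.9 (−log10 q 32.8) in WT with prednisolone. In the N642H line the fold was 23 (−log10 q 40.8) untreated and 29.0 (−log10 q 66.1) with prednisolone. All 4 regions overlapped, and the STAT5B summit nearest to COX17 lay 165529 bp away (untreated N642H). In the untreated lists the other region lay at PGAM1, a glycolytic enzyme gene, which showed a like order of values, with folds of 18.0 and 23.2 in WT and 24.2 and 31.4 in N642H, untreated before prednisolone in each. In the long NR3C1 lists COX17 ranked in the top 16.4% of regions in WT and the top 8.14% in N642H.

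COX20, a chaperone gene for the COX2 subunit, was the other member with NR3C1 regions in both treated lines, with a fold of 9.44 in WT (−log10 q 11.5) and 5.78 in N642H (−log10 q 5.49). Of its STAT5B regions in untreated WT, the stronger (fold 5.87) overlapped the NR3C1 regions of both treated lines, and the weaker (fold 4.14) overlapped neither. The STAT5B region in untreated N642H (fold 4.94) lay about 1 kb farther upstream and overlapped none of the others. COX19 was linked to STAT5B in untreated WT (fold 6.67) and untreated N642H (fold 8.09), and COX16 in untreated N642H (fold 5.64). None of these assembly factors had a STAT5B region with prednisolone, against 3.64% of all genes in WT and 1.74% in N642H. With so few genes this difference was not tested.

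Complex V, the ATP synthase, had 2 of 20 genes linked to STAT5B in untreated WT and 8 in untreated N642H, 6 more, and complex I differed by the same number. The share of all genes went from 9.94% to 19.2% between these lists, and the 8 count the same region for both ATP5MF and ATP5MF-PTCD1. ATP5F1D, the delta subunit gene (fold 10.5, −log10 q 18.2), and ATP5MC2, a gene for the membrane c-ring (fold 9.79, −log10 q 14.1), had the strongest of these regions and no STAT5B region in the other lists. ATP5F1B, the catalytic beta subunit gene, was linked there as well (fold 5.29). ATP5F1A, the alpha subunit gene, had a STAT5B region in untreated N642H (fold 5.05) that overlapped an NR3C1 region of the same line with prednisolone (fold 13.8, −log10 q 22.7), the strongest NR3C1 region at any member without an untreated one. ATP5PF, a stalk subunit gene, was linked together with GABPA in untreated WT (fold 5.93) and untreated N642H (fold 4.47). GABPA encodes the DNA-binding subunit of GABP. ATP5MJ, a small subunit gene, was linked in N642H without (fold 6.56) and with prednisolone (fold 8.01) and not in WT.

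ATP5MF, a membrane subunit gene, was linked in untreated N642H (fold 5.66) and in WT with prednisolone (fold 6.02). The read-through gene ATP5MF-PTCD1 was linked through those regions and through others near PTCD1 and CPSF4 in WT (fold 6.40 untreated and 8.25 with prednisolone), so its entry in untreated WT is not a region at ATP5MF.

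**Figure D4:**
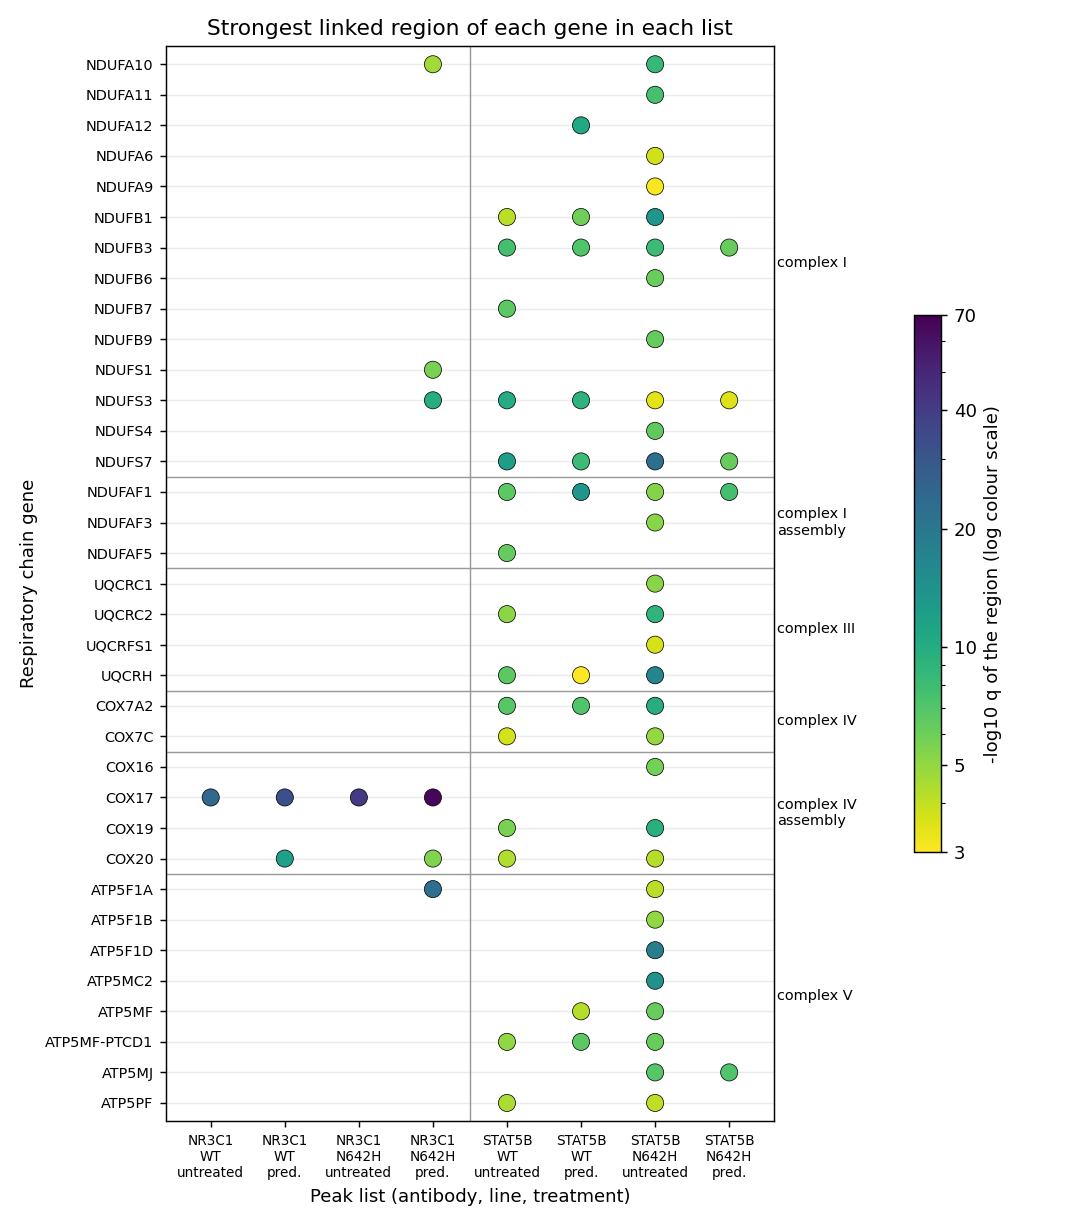
The 35 linked genes (rows, grouped by complex) and the 8 peak lists (columns); each point is the strongest linked region, coloured by its −log10 q on a log scale, and a gap means no summit in the gene or within 2 kb. COX17 is filled in all 4 NR3C1 columns, and NDUFB3, NDUFS3, NDUFS7 and NDUFAF1 in all 4 STAT5B columns.

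The comparison of untreated lines asked which members carried STAT5B with either form. Of the 15 WT members 13 (86.7%) were also linked in N642H, and these were 43.3% of the 30 N642H members. Over all genes the shares were 73.5% and 38.1%. For 11 of the 13 the regions overlapped, the exceptions being COX20 and ATP5MF-PTCD1. Overlap of regions was counted for members only, here and in the comparisons below. Such counts therefore do not set the members apart from other genes. The 17 members found in N642H and not in WT included 6 of complex V. In the WT list the median member region had a fold of 6.67 against 6.25 for the whole list, and in N642H 5.97 against 6.13. By fold, regions at these genes were thus near the middle of their lists. The median −log10 q was 6.34 against 5.30 in WT and 6.21 against 6.70 in N642H.

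With prednisolone the WT line kept 8 of its 15 untreated members (53.3%), and they were 80% of the 10 treated members. For all genes the shares were 25.4% and 69.2%. The 8 were NDUFAF1, NDUFB1, NDUFB3, NDUFS3, NDUFS7, UQCRH, COX7A2 and ATP5MF-PTCD1, and in 7 of them the regions overlapped. In the N642H line all 5 treated members were among the 30 untreated ones (16.7% of these), with overlapping regions in each. For all genes 8.23% of untreated genes were linked with prednisolone and 90.8% of treated genes without it. The treated lines had 4 members in common, NDUFAF1, NDUFB3, NDUFS3 and NDUFS7, which are 40% of the WT and 80% of the N642H members. Over all genes these shares were 27.4% and 57.5%. All 4 regions overlapped between lines. These list pairs share a list with each other, so their overlaps are not independent.

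Genes bound by both NR3C1 and STAT5B were counted within each treated line. With prednisolone, 0 of 2 NR3C1 members in WT and 1 of 6 in N642H were STAT5B members of the same line, and over all genes the shares were 20.3% and 11.3%. With so few members these counts do not set them apart from other genes. Both NR3C1 members of the WT line were also NR3C1 members in N642H, and they were 33.3% of the latter. Over all genes the shares were 91.8% and 33.7%. The NR3C1 regions of treated N642H cells at NDUFS3 and ATP5F1A overlapped untreated STAT5B regions of the same line, and those at COX20 and NDUFA10 did not.

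Many of the regions could not be assigned to the respiratory chain gene alone. Another protein-coding gene was linked through a region of 15 of the 35 linked members, counting read-through genes that overlap a member. The same share over all linked genes is not given here, so this count does not set the members apart. Besides those named above, NDUFA11 shared a region with VMAC, NDUFA9 with AKAP3, NDUFAF3 with DALRD3, NDUFB9 with TATDN1, NDUFB6 with SMIM27 and TOPORS, and COX16 with the read-through gene SYNJ2BP-COX16. Widening the 2 kb limit to 5 kb changed membership little, with 16 STAT5B members in untreated WT and 33 in untreated N642H. Dropping the margin changed it much, as requiring the summit inside the gene left 6 and 10 in these lists. The linked summits farthest outside a gene lay at 1390 bp (COX20), 1177 bp (ATP5F1D) and 693 bp (NDUFB6). The nearest unlinked ones were at 2631 bp (SDHA), 2782 bp (NDUFB10, with fold 6.35 in untreated N642H, and 2807 bp in untreated WT) and 4642 bp (UQCR11).

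The letters of the promoters were then described. A promoter window was held for 86 of the 106 members and 15842 of all genes, and each motif was searched on both strands in every window of a gene, where matches to different motifs could overlap. The STAT motif TTCNNNGAA was in 7 of 86 members (8.14%) and 8.98% of all genes, and the glucocorticoid receptor core ACANNNTGT in 3 (3.49%) and 5.26%. The core of the NRF1 site, CGCATGCG, was in 14 members (16.3%) and 3.28% of genes. The ETS motif CCGGAAGT was in 15 (17.4%) and 6.97%, the YY1 motif AAGATGGC in 14 (16.3%) and 4.66%, and the CRE motif TGACGTCA in 5 (5.81%) and 3%. The letters of the NRF1, ETS, YY1 and CRE motifs were thus found in a larger share of member promoters than of all promoters, and those of the STAT and receptor motifs in a smaller share. These differences were not tested.

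Among the 28 members with a window and a STAT5B region, 1 (COX7A2) held the STAT motif, and among the other 58 it was in 6. No NR3C1-linked member was among the 3 with the receptor core, which were COX5A, NDUFB2 and NDUFC1. In the windows printed above, NDUFS7 held CGCATGCG, whose first base lies 74 bp upstream of the start, and AAGATGGC with its first base 17 bp downstream. The printed windows of NDUFB3, NDUFS3, NDUFAF1 and COX17 held none of the 6 motifs. Upstream of its other start, COX17 held CGCATGCG at 115 bp, and CCGGAAGT lay 10 bp downstream of that start.

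Other genes of the pathway were counted in the same way, beside the shares of all genes given above (STAT5B 9.94% and 19.2% in untreated WT and N642H, 3.64% and 1.74% with prednisolone, and NR3C1 2.61% and 7.1% with prednisolone). Of 39 further assembly and electron carrier genes, 9 were linked to STAT5B in untreated WT, 15 in untreated N642H, 5 in WT with prednisolone and 1 in N642H with prednisolone. These were 23.1%, 38.5%, 12.8% and 2.56% of the list. NR3C1 was linked to TACO1 alone (WT, fold 7.09). HIGD2A, a complex IV assembly gene, was linked to STAT5B in both treated lines (fold 8.50 in WT and 11.9 in N642H). TACO1, a translational activator gene for complex IV, had STAT5B regions in untreated WT (fold 9.83), untreated N642H (9.18) and treated WT (9.98). COA6 (6.65), SDHAF3 (6.45) and CMC2 (5.59) were also linked in treated WT.

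Of 11 regulators of respiratory chain genes, 3 were linked to STAT5B in untreated WT, 5 in untreated N642H, 1 in WT with prednisolone and 0 in N642H with prednisolone (27.3%, 45.5%, 9.09% and 0%). NR3C1 in the treated N642H line was linked to 3 of them (27.3%). These were TFB1M, a gene for a mitochondrial ribosomal RNA methyltransferase (fold 20.5), GABPB1, the gene of the partner subunit of GABP (fold 10.1), and the coactivator gene PPARGC1A (fold 6.04). GABPB1 also had STAT5B regions in untreated N642H (fold 6.43), in untreated WT (4.68 for the stronger of its regions) and in WT with prednisolone (5.59). Of 13 citric acid cycle genes STAT5B was linked to 3 and 6 in untreated WT and N642H (23.1% and 46.2%) and to 0 with prednisolone, and NR3C1 to SUCLG2 in treated N642H (fold 7.85). The strongest remaining regions of these lists were at IDH3B (fold 11.3), ESRRA (8.64), DLST (7.41), COA5 (6.67) and ACAD9 (7.46), all in untreated N642H.

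Ribosomal protein genes, another set of constantly expressed genes, were linked to STAT5B more often than the respiratory chain genes in the untreated lists. Mitochondrial ribosomal protein genes (77) had 40.3% linked in untreated WT and 49.4% in untreated N642H, and cytosolic ones (101) 24.8% and 46.5%, where the respiratory chain genes had 14.2% and 28.3%. With prednisolone the shares were 15.6% and 6.49% for mitochondrial ribosomal genes, 10.9% and 4.95% for cytosolic ones, and 9.43% and 4.72% for respiratory chain genes. These differences were not tested.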

How the data were processed

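The 8 peak lists were used as deposited, apart from the regions left out as described below. BWA, MACS2, deepTools and the genome build hg38 are named in the submitters' processing notes, without versions, and their settings are not given in the sources used here. In the narrowPeak layout, the authors deposited for each region a score (the whole part of 10 times the −log10 q), a fold ratio over local background, −log10 p, −log10 q and the summit offset. Regions on other sequences than the numbered chromosomes, X and Y were left out. Coordinates are hg38, counted from 1.

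Genes, spans, annotated starts and promoter sequences came from RefSeq tables of GRCh38.p14. Starts and strands were held for 86 of 106 members. For the rest the nearer gene end stood in. Links were computed in Python 3.11.15 with pandas 2.3.3 and numpy 2.4.6, and intervals with scipy 1.17.1. On simulated summits 100% of 4000 planted links and non-links were recovered over 20037 genes. Members, gene lists and motifs were chosen with earlier results of these data known. Genes were named by a rule that took every member linked to NR3C1, to STAT5B with prednisolone or in both untreated STAT5B lists, the 15 and 10 strongest found only in untreated N642H or WT, those nearest the 2 kb limit, complex II, CYC1 and COX17, and in the further lists the genes linked with prednisolone and the 5 with the highest −log10 q. NDUFA9, UQCRFS1 and PGAM1 fall outside it and were named after their values were seen. Alternatives were another distance, stricter thresholds, equal list lengths, whole regions, gene starts and subunits only.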

Additional observations from a re-analysis of the deposited data

Results flagged for a closer look

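The number of respiratory chain genes linked to STAT5B differed between lines in opposite directions with and without prednisolone. Untreated, the N642H line had 15 more linked members than the WT line (30 against 15). With prednisolone the difference was -5 (5 against 10). The shares of all protein-coding genes moved the same way, from 9.94% to 19.2% without and from 3.64% to 1.74% with prednisolone, as did the list lengths (2267 and 4542 regions, 766 and 446 regions). With 1 library per group the difference was not tested. With lists of equal length N642H and WT had 3 and 2 members untreated, and 5 and 8 with prednisolone.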

How the results depend on the processing

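Of 122 recomputed counts 96 stayed within 1.5 times the reported one. Some of these could not move, so the 96 overstate how stable the counts were. The untreated NR3C1 lists hold 2 regions each, and a cut to 446 regions leaves the treated N642H STAT5B list unchanged. The count for NR3C1 and STAT5B in treated WT was 0 under every rule. With summits required inside the gene span, STAT5B was linked to 6 members in untreated WT, 10 in untreated N642H, 3 in WT and 1 in N642H with prednisolone (5.11%, 10%, 1.71% and 0.853% of all genes). NR3C1 with prednisolone was linked to 1 in WT and 3 in N642H (2.25% and 5.74% of all genes). The counts in common were then 3 for the untreated lines, 3 for WT and 1 for N642H without and with prednisolone, 1 for treated STAT5B in both lines, 1 for treated NR3C1 in both lines, and 0 for NR3C1 and STAT5B in treated N642H. With lists of 446 regions the counts were 2 and 3 (untreated STAT5B) and 1 (NR3C1, treated N642H). Those in common were 1 (untreated lines), 2 (WT STAT5B without and with prednisolone), 1 (the same in N642H), 1 (treated NR3C1) and 0 (NR3C1 and STAT5B, treated N642H). With −log10 q of at least 5 they were 8 for the untreated lines and 0 for NR3C1 and STAT5B in treated N642H. Among 88 structural subunits NR3C1 was linked to 0 in both untreated lists and in treated WT, and to 0 in both treated lines together. These rules use less of each gene, fewer regions or fewer genes, and the cause of each shift was not tested. Of 60 gene and list pairs linked in 2 lists 54 had overlapping regions, also by summits within 200 bp. This was counted for members only, so it does not set them apart from other genes. No paired analysis was possible because each group has 1 library. Depth is unknown, so a missing region is not shown to be missing binding.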
